A study of Mus musculus with 92 samples.

Results

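Solute carriers are the membrane proteins that move metabolites, ions and vitamins into and out of cells and organelles. Of the 7886 genes in the count table, 131 had a symbol built as Slc, a family number, a letter and a member number, and these are described here. The Slc25 family, the carriers of the inner mitochondrial membrane, contributed 27 of them, and the other families, most of them in the plasma membrane or in vesicles, contributed 104. The symbol rule also took in 3 genes that encode no carrier: the pseudogene Slc22a13b-ps, the adaptor protein gene Slc4a1ap and the opposite-strand gene Slc7a6os.

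The cells were single blastomeres of 8-cell wild-type C57BL/6N mouse embryos, read with Smart-seq2, which amplifies full-length cDNA of 1 cell. As zygotes they had received a microinjection of Let7d, Let7e (mimics of the microRNAs let-7d and let-7e), a microRNA labelled mi699a-5p, or a negative control (NC). Counts were available for 18 Let7d, 20 Let7e, 21 mi699a-5p and 22 NC cells, after 1 pair of Let7d columns was summed and counted as 1 cell, since it differed by little more than sampling noise (a chi-square per gene of 1.05, where noise alone gives about 1 and the next closest pair gave 32.3). They came from 3, 4, 4 and 3 mouse ids in the same order of groups. The labels do not say what a mouse id is, and p-values below measure the spread between mouse ids, which may be technical.

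The embryo before implantation lives on pyruvate, lactate and amino acids taken up through carriers of the plasma membrane, and it uses glucose in quantity only from the compacting stages on. Slc25 carriers link the cytosol to the mitochondrial matrix: they exchange ADP for ATP, import phosphate, and move amino acids, acylcarnitines and cofactors. Carriers of the other families also set the cell's volume, pH and zinc content.

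The injected let-7 species share their seed, the bases by which a microRNA recognises its targets. The mature sequences are shown because the seed fixes which transcripts could carry a match. They are RefSeq entries on build GRCm38.p6, at chr13:48536078-48536099 (minus strand) for let-7d and chr17:17830366-17830387 (plus strand) for let-7e, and bases 2 to 8, the seed, are in capitals.
mmu-let-7d-5p: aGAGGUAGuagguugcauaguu
mmu-let-7e-5p: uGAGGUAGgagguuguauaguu

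The heptamer complementary to this seed, CTACCTC, was searched on the sense strand of the longest annotated 3′ UTR of each gene (GENCODE M21, GRCm38). It stood in 16 of 130 solute carriers with such a UTR (12.3%), 3 of them among the 27 Slc25 genes, against 803 of 7576 genes overall (10.6%). The median UTR was 1389 bases long in solute carriers and 1166 bases in all genes. Of the carriers with a match, Slc5a6 had the highest level in these cells, Slc2a3 was 1 of 2 glucose transporters in the table, and Slc25a12, the aspartate-glutamate carrier, and Slc25a32, the folate and FAD carrier, were mitochondrial. Their matches are shown with 11 bases on either side and the heptamer in capitals. They lie at chr5:31036304-31036332 for Slc5a6, chr6:122728365-122728393 for Slc2a3, chr2:71273529-71273557 for Slc25a12 and chr15:39093457-39093485 for Slc25a32, all on the minus strand.
Slc5a6: ctcattcttacCTACCTCgactcttgaga
Slc2a3: gttggaaggctCTACCTCactacagctag
Slc25a12: aagtgccctcgCTACCTCctcttcaacca
Slc25a32: cttagattcccCTACCTCtgcctcctagt

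All 10 markers of preimplantation blastomeres were in the table, while none of the 12 cumulus, 7 sperm and 5 blood markers was among its rows. The summed marker level was 6478 to 7523 CPM (reads scaled by the TMM method to a common library total) in Let7d mouse ids, 8243 to 8816 in Let7e, 7884 to 11534 in mi699a-5p and 7455 to 8334 in NC. Cells held 1575609 to 4950404 reads, and the summed mouse ids 6329464 to 24037593 reads from 2 to 8 cells. Let7d libraries differed in composition: ribosomal RNA took 3.68 to 8.79% of their reads, against 9.24 to 15.9% in NC. Let7d mouse ids also averaged 2991646 to 4071285 reads a cell, against 2225246 to 2732434 in NC. The part of these differences in the results below was not tested. At 10 CPM a cell, 3 mouse ids (Let7e 1, mi699a-5p 4 and NC 2) held both cells with Xist above that level and Y-linked genes below it and cells with the reverse, so a mouse id need not be a single embryo. In NC 2 these were 4 and 4 of 8 cells.

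The mitochondrial set was led by the machinery that supplies ATP synthesis. Slc25a3, the phosphate carrier, had the highest level of the 27, with a mean of 224.5 CPM per kb of exon length over the 14 mouse ids, which placed it 206th of all genes. Slc25a5 and Slc25a4, the ADP/ATP translocases, followed at 162 and 126 CPM per kb. These paralogs are alike in sequence, so the split of reads between them is uncertain. Slc25a44, a carrier of branched-chain amino acids, reached 101 CPM per kb, and Slc25a36, a carrier of pyrimidine nucleotides, 53.7. The ranges over mouse ids of neighbours in this order overlapped for Slc25a3, Slc25a5, Slc25a4 and Slc25a44, so their order is that of the means. All 5 were found in each of the 81 cells.

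A second tier lay between 22.3 and 28.0 CPM per kb. It held Slc25a17, a carrier placed in the peroxisome rather than the mitochondrion, Slc25a20, the carnitine-acylcarnitine carrier, Slc25a38, the glycine carrier of haem synthesis, Slc25a41, an ATP-Mg/phosphate carrier, and Slc25a39, which carries glutathione. The shuttles of reducing equivalents were measured at 16.3 CPM per kb for Slc25a12, 11.1 for the oxoglutarate carrier Slc25a11 and 10.8 for the dicarboxylate carrier Slc25a10. Lower levels were found for the glutamate carrier Slc25a22 (9.97 CPM per kb) and the NAD carrier Slc25a51 (9.23). The S-adenosylmethionine carrier Slc25a26 (3.95 CPM per kb), Slc25a32 (3.94), the coenzyme A carriers Slc25a16 (3.09) and Slc25a42 (1.098) and the iron carrier Slc25a28 (2.92) were lower still, with Slc25a46, an outer-membrane protein of mitochondrial dynamics, at 5.17. Outside the functional list, Slc25a21 (2.56 CPM per kb) and Slc25a30 (1.98) were also among the lowest, and Slc25a42 was the lowest of the 27. Of 28 mitochondrial carriers listed by function, 21 were in the table. Slc25a1, Slc25a13, Slc25a24, Slc25a31, Slc25a33, Slc25a37 and Slc25a40 were not among its rows, which the authors had filtered on CPM.

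**Figure D1:**
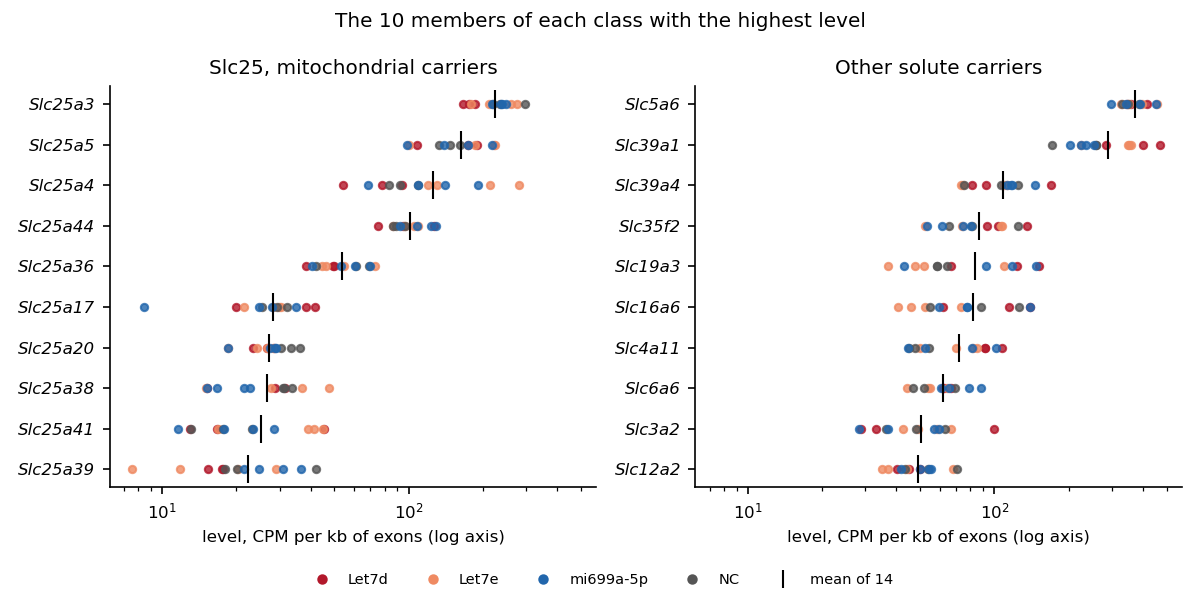
Level of the 10 Slc25 genes (left) and the 10 other solute carriers (right) with the highest mean, in CPM per kb of exons on a log axis. Each point is 1 of 14 mouse ids, coloured by group, and the black mark is their mean. Slc25a3 (mean 224.5) leads the mitochondrial set and Slc5a6 (mean 371.7) the others.

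Among the other families a vitamin transporter and zinc importers stood highest. Slc5a6, the sodium-dependent transporter of biotin and pantothenate, had 372 CPM per kb and ranked 93rd of all genes. Atraid overlaps it on the opposite strand and is also in the table, and without strand the reads of such a pair cannot be told apart. Slc39a1 (289 CPM per kb) and Slc39a4 (108 CPM per kb) import zinc. Slc35f2 reached 86.7 CPM per kb and the thiamine transporter Slc19a3 83.6. Slc4a11, a boron- and ammonia-responsive proton transporter, reached 71.6, the taurine transporter Slc6a6 62.2, and the sodium-potassium-chloride cotransporter Slc12a2 49.2 CPM per kb. The median level was 10.8 CPM per kb for Slc25 genes, 5.77 for the other carriers and 9.96 for all genes. Each of the 81 cells contained reads of 8 of the 27 Slc25 genes and of 17 of the 104 others, while 0 Slc25 genes and 10 others were found in 40 cells or fewer. The means spanned 1.098 to 224.5 CPM per kb among Slc25 genes and, among the others, 0.61 for the zinc transporter Slc30a9 to 371.7 for Slc5a6.

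Few of the genes listed for uptake of glucose, lactate and pyruvate were among the rows, which the authors had filtered on CPM. Slc2a3 and Slc2a8, transporters of glucose at the plasma membrane and at intracellular membranes, were the 2 of 11 listed glucose transporters present, at 8.39 and 14.6 CPM per kb. Slc2a1, the widespread glucose transporter, was not among the rows. Of 8 genes listed for lactate and pyruvate, 2 were present. Slc16a1, the proton-coupled transporter of lactate and pyruvate, had 26.4 CPM per kb. Slc16a6, listed as a member of the same family and not for a known part in lactate uptake, had 82.2. Slc16a6 overlaps Amz2 on the opposite strand.

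Amino acid carriers were more numerous, with 12 of 30 listed genes present. The heavy chain Slc3a2, which brings its light chains to the cell surface, had 50.5 CPM per kb. Its light chains differed: Slc7a6, an exchanger of cationic for neutral amino acids, had 37.3 CPM per kb, Slc7a5, for large neutral amino acids, 5.63, and Slc7a7 2.32. Slc7a7 overlaps Oxa1l on the opposite strand. The glutamate and aspartate transporter Slc1a1 had 26.7 CPM per kb and the neutral amino acid exchanger Slc1a5 19.8. Slc6a14 (3.64 CPM per kb), Slc38a7 (3.76), Slc38a10 (3.26), the glycine transporter Slc6a9 (1.96) and Slc38a4 (1.94) were low, and Slc6a9, Slc6a14 and Slc38a4 were listed at 0 in at least 1 mouse id. Levels per length are lowered where an annotated long isoform is little used.

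Proteins that work with these carriers were measured too, 20 of 24 listed. Bsg, the chaperone of Slc16a1, had 103 CPM per kb. Mpc1 and Mpc2, which together form the mitochondrial pyruvate carrier, had 35.8 and 23.9, and Timm10, an intermembrane-space chaperone that guides carriers to the inner membrane, had 166 CPM per kb.

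Each injected microRNA was then set against NC, with counts summed per mouse id and 1 edgeR quasi-likelihood fit over the 4 groups. All 131 carriers passed the filter on low counts and were tested. For Let7d, 0 of 131 solute carriers passed an adjusted p of 0.05, where 0.0127% of all genes (1 of 7886) did. At an unadjusted p under 0.05 there were 8 carriers by edgeR (6.11%, against 4.69% of all genes), 6 higher (2.65% of all genes) and 2 lower (2.04%), and 10 by DESeq2, which called 0 after adjustment. The share of all genes at that p by DESeq2 was not computed. The DESeq2 counts here and below therefore cannot be read against the edgeR shares. The median log2 fold change was 0.11 for the carriers and 0.01 for all genes. Split by class it was -0.18 for Slc25 genes and 0.14 for the others. The carriers' smallest adjusted p was 0.886.

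Slc25a3 had the smallest p of the mitochondrial set in this comparison. It stood at 1027, 980 and 918 CPM in Let7d mouse ids 1 to 3, against 1638, 1306 and 1215 CPM in NC. The groups did not overlap, the log2 fold change was -0.51 ± 0.19 (SE) with a 95% interval of -0.91 to -0.10, and the unadjusted p of 0.0169 became 0.986 after adjustment. Slc25a20, Slc25a26 and Slc25a39 were also lower in each Let7d mouse id than in each NC one. That made 4 of 27 Slc25 genes without overlap on the lower side and 0 on the higher side, where 5.96% and 6% of all genes lay. Slc25a26 had 8.79, 8.96 and 10.9 CPM in Let7d, against 24.5, 20.7 and 21.4 CPM in NC, and a 95% interval from -2.51 to 0.07. Slc25a20 and Slc25a26 recurred on the lower side in Let7e, while in mi699a-5p Slc25a20 was lower and Slc25a26 higher, as given below.

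Among the other families, Slc4a11 had 458, 537 and 456 CPM in Let7d, against 237, 271 and 225 CPM in NC. The groups stood apart by more than their own ranges, at a log2 fold change of 0.98 ± 0.28 (unadjusted p = 0.00254, adjusted p = 0.886). The zinc importer Slc39a1 had 946, 1110 and 672 CPM in Let7d, against 609, 407 and 612 CPM in NC, with a 95% interval of 0.25 to 1.25 on the log2 scale. Slc39a10, another zinc importer, had 66.8, 49.8 and 44.0 CPM in Let7d, against 17.4, 33.2 and 15.3 CPM in NC. Slc5a3, the myo-inositol transporter, and Slc19a3 also had no overlap, with log2 fold changes of 0.68 ± 0.30 and 0.91 ± 0.42. For Slc19a3 the lowest Let7d value, 204 CPM, nearly met the highest NC value, 198 CPM. Slc5a3 shares exons on the same strand with Mrps6, so its reads are uncertain. The remaining non-overlapping genes were the amino acid transporters Slc7a5 and Slc6a15 on the higher side and Slc30a4 and Slc35f6 on the lower side. The sodium-proton exchanger Slc9a8 had the lowest fitted change with an unadjusted p under 0.05, at -1.76 ± 0.68, with 5.20, 15.8 and 4.86 CPM in Let7d against 28.6, 14.8 and 44.2 CPM in NC, and these groups overlapped.

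**Figure D2:**
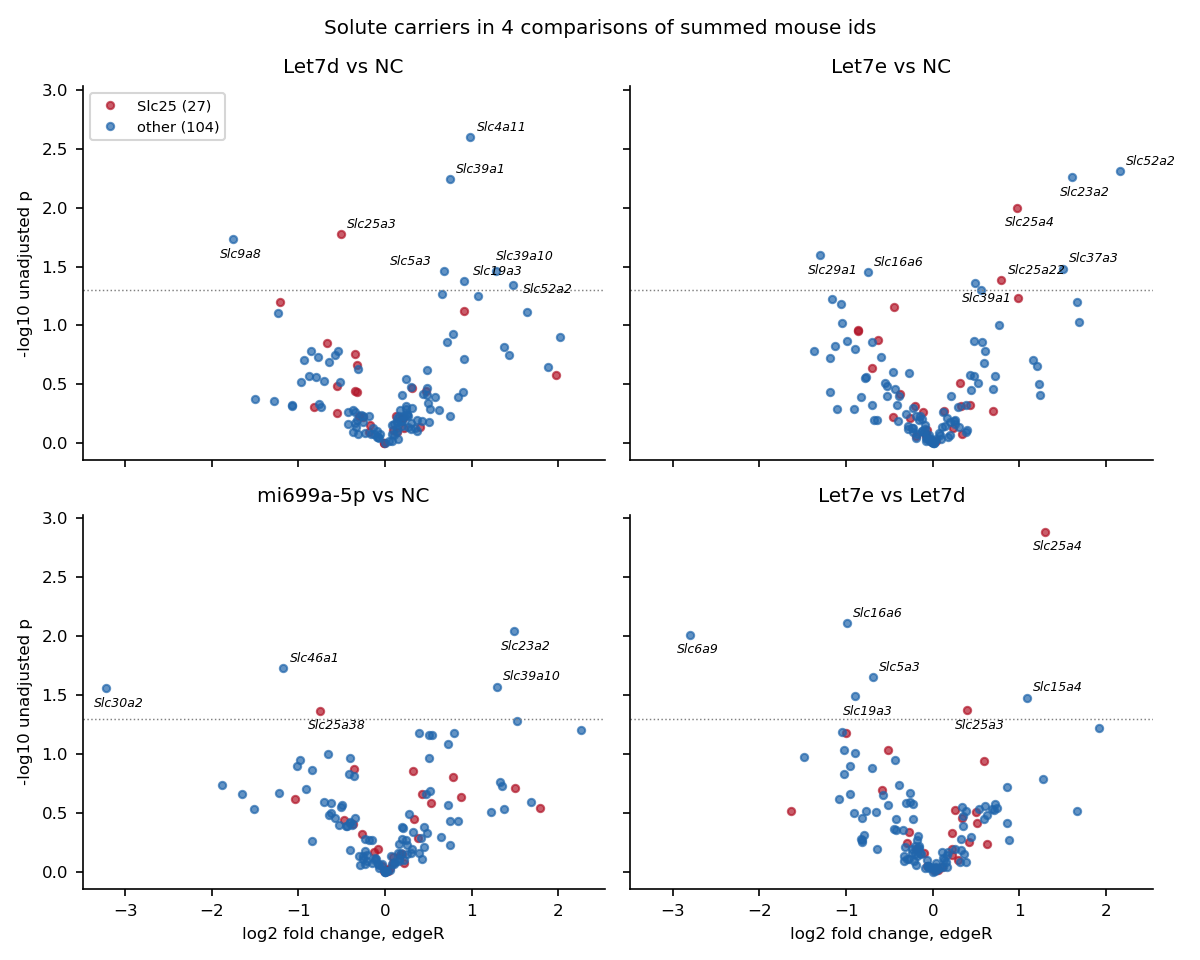
log2 fold change (x) and -log10 of the unadjusted p (y) of the 131 solute carriers in 4 edgeR comparisons. Red points are the 27 Slc25 genes, blue points the 104 others, and the dotted line is an unadjusted p of 0.05. Between 5 and 8 carriers lie above the line in each panel, and none passed adjustment over all genes.

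Let7e gave 0 called carriers, as it gave 0 called genes overall (0%). By edgeR 8 carriers (6.11%) had an unadjusted p under 0.05, against 4.02% of all genes, with 6 higher (2.33% of all genes) and 2 lower (1.69%). DESeq2 gave 11 before adjustment, with no share over all genes computed, and 0 after it. The median log2 fold change was -0.06 in carriers and 0.02 in all genes. Slc25a4 had 501, 308, 282 and 660 CPM in Let7e mouse ids 1 to 4, against 257, 195 and 218 CPM in NC. All Let7e values lay above the NC ones, at a log2 fold change of 0.97 ± 0.34 (unadjusted p = 0.01, adjusted p = 0.999). The glutamate carrier Slc25a22 followed at 0.79 ± 0.36. Its twin translocase Slc25a5 had a 95% interval of -0.31 to 0.94, which takes in no change.

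The vitamin transporters Slc52a2 (riboflavin) and Slc23a2 (ascorbate) had the 2 smallest p-values among the other families in this comparison. Slc52a2 had 15.5, 37.8, 48.7 and 40.8 CPM in Let7e, against 15.3, 3.41 and 5.19 CPM in NC. Slc23a2 had 37.5, 33.3, 37.2 and 44.1 CPM in Let7e, against 21.8, 9.24 and 6.32 CPM in NC. Neither pair of groups overlapped, although the lowest Let7e value of Slc52a2 nearly met the highest NC value. The log2 fold changes were 2.16 ± 0.67 and 1.61 ± 0.51, both with an adjusted p of 0.999. In Let7d against NC the same genes were at 1.47 ± 0.68 and 1.07 ± 0.53. Slc39a1 and Slc4a11, described above for Let7d, were at 0.48 ± 0.22 and 0.55 ± 0.26 in Let7e, with overlap. On the lower side stood the nucleoside transporter Slc29a1 (-1.297 ± 0.53) and Slc16a6 (-0.75 ± 0.33). Without overlap were 5 carriers on the higher side and 4 on the lower side, where all genes gave 2.78% and 2.84%. Among the 4 were Slc25a20, Slc25a26 and Slc35f6, which were also lower without overlap in Let7d. In mi699a-5p, Slc25a20 and Slc35f6 were lower without overlap too, while Slc25a26 was higher without overlap.

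For mi699a-5p, 0 carriers and 0 genes (0%) were called. An unadjusted p under 0.05 was reached by 5 carriers with edgeR (3.82%, against 5.5% of all genes) and 7 with DESeq2, which called 0. Of the 5, 2 were higher and 3 lower, where all genes gave 3.2% and 2.31%. Slc23a2 was higher again, with 51.8, 36.4, 26.8 and 24.6 CPM in mi699a-5p, against the same 3 NC mouse ids, at 1.49 ± 0.51. The folate transporter Slc46a1 was at -1.18 ± 0.45. Of genes described above, Slc39a10 was at 1.29 ± 0.535, Slc4a11 at 0.51 ± 0.26, Slc52a2 at 0.25 ± 0.63 and Slc39a1 at 0.002 ± 0.22. Slc25a38 had 59.1, 62.1, 45.8 and 41.6 CPM in mi699a-5p, against 85.0, 85.9 and 92.4 CPM in NC, with no overlap and a log2 fold change of -0.75 ± 0.34 (unadjusted p = 0.0428, adjusted p = 0.871). Groups without overlap were found for 4 carriers on the higher side and 3 on the lower side, beside 4.51% and 3.87% of all genes. The 3 were Slc25a20, Slc25a38 and Slc35f6, and Slc25a26 was among the 4. The 3 comparisons share the NC mouse ids, so a gene that recurs in them is not seen independently.

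Let7e against Let7d compares injected microRNAs with the same seed. It gave 0 called carriers and 0 called genes (0%), with 7 carriers at an unadjusted p under 0.05 by edgeR (5.34%, against 5.39% of all genes) and 8 by DESeq2, which called 0. Of the 7, 3 were higher and 4 lower, beside 2.79% and 2.6% of all genes. Slc25a4 had the smallest p of any carrier in these edgeR tests. It had 501, 308, 282 and 660 CPM in Let7e, against 184, 222 and 127 CPM in Let7d. All Let7e mouse ids were above all Let7d ones, at a log2 fold change of 1.299 ± 0.34 with a 95% interval of 0.58 to 2.02 (unadjusted p = 0.0013, adjusted p = 0.845). Slc25a3 was at 0.40 ± 0.18, with a Let7e range of 997 to 1521 CPM that overlapped the Let7d range of 918 to 1027 CPM.

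Slc16a6 had 254, 359, 198 and 225 CPM in Let7e, against 562, 682 and 302 CPM in Let7d, with overlap and a log2 fold change of -0.99 ± 0.33 (adjusted p = 0.874). Slc6a9 had 3.84, 1.096, 0 and 4.52 CPM in Let7e, against 10.9, 25.3 and 13.9 CPM in Let7d. Its groups did not overlap, but the counts were small and the fitted -2.80 ± 0.97 depends on the prior count. Groups without overlap were found for 3 carriers on the higher side and 4 on the lower side, against 3.12% and 2.95% of all genes.

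A test of any difference among the 4 groups by edgeR called 0 carriers and 0 genes (0%), with 9 carriers at an unadjusted p under 0.05 (6.87%, against 5.59% of all genes). Slc25a4 (p = 0.00552), Slc52a2 (p = 0.00752) and Slc39a1 (p = 0.00763) had the smallest unadjusted p-values, each with an adjusted p of 0.829. DESeq2 was not run on this joint test. The median SE of a carrier's log2 fold change was 0.51 to 0.55 over the 4 comparisons, and the median half-width of its 95% interval 1.08 to 1.16. A typical interval thus spanned a factor of more than 2 in either direction.

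**Figure D3:**
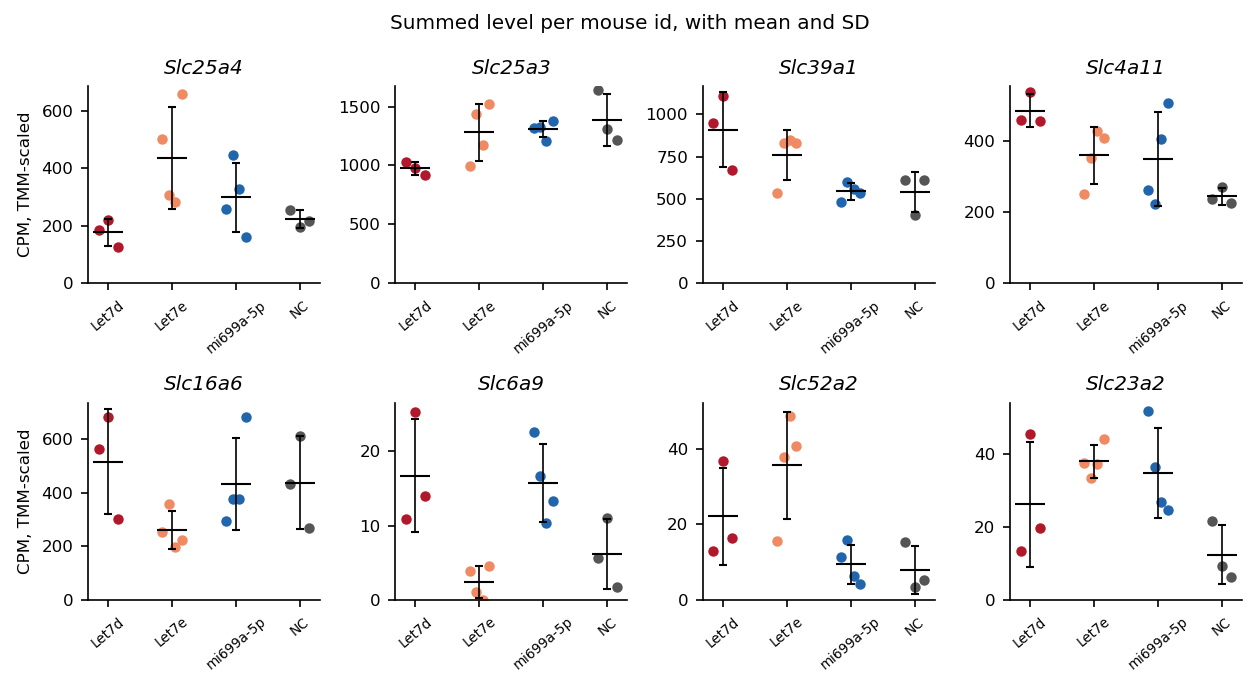
Level per mouse id, in TMM-scaled CPM, of 8 solute carriers described in the text, in Let7d (n = 3), Let7e (n = 4), mi699a-5p (n = 4) and NC (n = 3). Points are mouse ids, and the bar and whiskers are mean and SD. All Let7e points of Slc25a4 lie above the Let7d and NC points, and all Let7d points of Slc4a11 above the NC points.

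Slc16a1, Slc2a3 and Slc2a8 had intervals that take in no change against NC. For Slc16a1 the 95% interval of the log2 fold change was -0.67 to 1.65 in Let7d, -0.84 to 1.33 in Let7e and -0.99 to 1.19 in mi699a-5p. For Slc2a3 it was -1.24 to 0.73, -1.51 to 0.32 and -1.41 to 0.42 in the same order, and for Slc2a8 -1.44 to 0.29, -1.26 to 0.35 and -1.47 to 0.14. Slc16a6, listed with Slc16a1 by family only, was at -0.51 to 0.99 in Let7d and -0.72 to 0.68 in mi699a-5p. In Let7e its interval was -1.45 to -0.06 before any adjustment, and its reads cannot be told from those of Amz2 without strand. The abundant Slc5a6 had narrower intervals, at -0.34 to 0.49, -0.27 to 0.50 and -0.32 to 0.45. Of the partner genes, 0 of 20 were called and 0 reached an unadjusted p under 0.05 in any of the 4 comparisons by edgeR, while DESeq2 called 0 and gave 1 at an unadjusted p under 0.05, in Let7e against Let7d.

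Carriers with the let-7 heptamer were divided in sign after both let-7 injections. Of the 16, 6 were below 0 in Let7d against NC, with a median log2 fold change of 0.11, beside 364 below 0 and a median of 0.05 for all 803 genes with the heptamer. In Let7e against NC 9 of 16 were below 0, with a median of -0.06, beside 401 of 803 and a median of 0.00 for all genes with it. The 114 carriers without the heptamer had nearly the same medians as the 16, at 0.11 in Let7d and -0.06 in Let7e. Of these 114, 51 were below 0 in Let7d and 66 in Let7e. None of the 16 reached an unadjusted p under 0.05 in these comparisons, by edgeR or by DESeq2. Of all 803, 32 did so in Let7d and 28 in Let7e by edgeR, a rate at which fewer than 1 of 16 would. Slc25a32 was at 0.14 in Let7d and -0.86 in Let7e on the log2 scale, and its 95% intervals, -1.02 to 1.29 and -1.94 to 0.21, both took in 0. Slc25a12 was at 0.31 in Let7d and -0.21 in Let7e.

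The share of reads falling on each class was also compared, with no test. Slc25 genes together took 0.339 ± 0.017% of reads in Let7d, 0.382 ± 0.052% in Let7e, 0.380 ± 0.043% in mi699a-5p and 0.369 ± 0.022% in NC (SD, n = 3, 4, 4 and 3 mouse ids). The other carriers took 1.05 ± 0.145% in Let7d, 0.864 ± 0.071% in Let7e, 0.904 ± 0.118% in mi699a-5p and 0.846 ± 0.030% in NC. The Slc25 share ranged from 0.319 to 0.350% in Let7d, below the NC range of 0.352 to 0.393%. These groups also stood apart on TMM-scaled CPM, at 3400, 3213 and 3031 in Let7d against 4092, 3458 and 3805 in NC. Without ribosomal RNA and mitochondrially encoded genes the Slc25 shares were 0.395, 0.379 and 0.337%, against 0.484, 0.415 and 0.438%, again without overlap. Slc25a3 weighs heavily in these sums, at 1027, 980 and 918 CPM in Let7d against 1638, 1306 and 1215 CPM in NC. Of the 27 Slc25 genes, 16 had a log2 fold change below 0 and 11 above. The gap is therefore not shown to be one of the class as a whole. In Let7d the other carriers ranged from 0.921 to 1.21%, above the NC range of 0.826 to 0.881%. The gap of the other carriers depended on the scaling. On TMM-scaled CPM the sums were 9913, 11127 and 8752 in Let7d, against 8595, 8404 and 9003 in NC, and without ribosomal RNA and mitochondrially encoded genes the shares were 1.15, 1.31 and 0.974%, against 1.02, 1.01 and 1.04%, so the groups overlapped on both. The 5 other carriers with the largest rise in mean CPM, picked by that rise, were Slc39a1, Slc4a11, Slc19a3, Slc5a3 and Slc16a6. Their sum equalled 75.3% of the net difference in mean summed CPM of that class, in which rises and falls of other members partly cancel.

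How far the blastomeres of 1 mouse id differed from one another was described with no test. Of the variance of log2(CPM + 1) within groups, a median of 82.9% lay between cells of 1 mouse id for Slc25 genes and 84.3% for the other carriers, beside 84.2% for all genes. With no difference between mouse ids the share to be found there is 87.0%, that of the degrees of freedom. Because spread depends on level, each gene was also set against the trend over all genes. Of Slc25 genes 16 of 27 were above the trend, of the other carriers 74 of 104, and of all genes 3825 of 7886. The median excess in SD was 0.11 for Slc25 genes, 0.12 for the others and -0.01 for all genes, on the log2 scale. Spread within a mouse id can include differences between embryos where a mouse id holds more than 1. With the 3 mouse ids that held cells of both kinds set aside (63 cells left), the medians were 83.4% for Slc25 genes, 86.3% for the other carriers and 86.6% for all genes. The share with no difference between mouse ids is then 88.1%. Above the trend lay 16 of 27 Slc25 genes, 72 of 104 other carriers and 3854 of 7886 genes.

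Genes with a mean of at least 10 CPM over cells were ranked by their distance from the trend. In the mitochondrial set the spread was well over the trend for Slc25a10 (SD 0.36 above the trend), Slc25a12 (0.33), the ornithine carrier Slc25a15 (0.31) and Slc25a46 (0.30). Slc25a12 was found in each of the 81 cells, at 0.865 CPM in the lowest, 100.2 in the median and 366 in the highest cell. Slc25a44 was among the evenest, with 127 CPM in the lowest, 337 in the median and 756 in the highest cell, and an SD of 0.50. Slc25a20 ranged from 23.1 to 317 CPM around a median of 130.2. Slc25a26, Slc25a21 and Slc25a14 also lay below the trend, but were listed at 0 in part of the cells.

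Of the other families, Slc19a3 had the largest excess, 0.81, with a median of 193 CPM, a highest cell of 873 CPM and 1 of 81 cells listed at 0. The inositol transporter Slc5a11 and Slc1a5 followed at 0.77 each, then Slc16a1 at 0.74 and the purine base transporter Slc43a3 at 0.59. Slc1a5 ranged from 0 to 395 CPM around a median of 67.3. Slc16a1 was found in 75 of 81 cells and reached 454 CPM in the highest. Lowest relative to the trend, among those with at least 10 CPM, were Slc22a13b-ps, Slc7a6os, Slc7a5, Slc35e2 and the vesicular monoamine transporter Slc18a2, of which the first 2 encode no carrier.

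**Figure D4:**
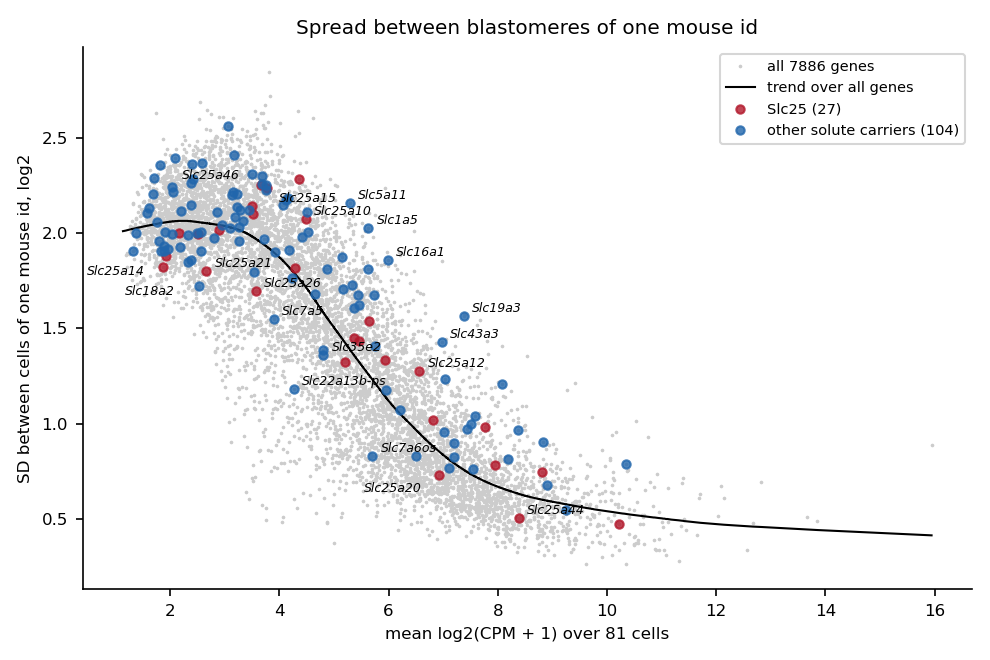
SD between cells of 1 mouse id (y, log2 scale) against mean log2(CPM + 1) over 81 cells (x). Grey points are all 7886 genes, the line is their trend, red points are the 27 Slc25 genes and blue points the 104 other solute carriers. Slc19a3, Slc5a11, Slc1a5 and Slc16a1 lie well above the line and Slc25a44 below it.

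Some carriers differed between mouse ids more than most genes did. Slc6a8, the creatine transporter, and Slc16a1 had 60.5% and 61.1% of their variance between cells of 1 mouse id, lower than all but 1.31% and 1.52% of genes with a mean of at least 10 CPM. Both were singled out after their values were seen. Summed per mouse id, Slc16a1 had 112, 160 and 151 CPM in Let7d, 171, 28.5, 144 and 134 in Let7e, 78.8, 91.7, 164 and 96.8 in mi699a-5p, and 115, 160 and 26.7 in NC. It was low in 1 Let7e and 1 NC mouse id and at 78.8 CPM or more in the other 12. Slc25a25, a calcium-regulated ATP-Mg/phosphate carrier that overlaps Naif1 on the opposite strand, had 68.9%, and Slc25a14 67.4%.

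Across the 81 cells, as deviations from the mean of each mouse id, Slc25a4 and Slc25a5 had a Pearson r of 0.41, and Slc25a3 and Slc25a5 of 0.19. For Slc3a2 r was 0.06 with Slc7a5, 0.22 with Slc7a6 and -0.22 with Slc7a7, and Slc16a1 and its chaperone Bsg gave -0.18. These are descriptions only, since cells of 1 mouse id share their source and both genes of a pair share the cell's depth. For Slc25a4 and Slc25a5 the split of reads between the paralogs is also uncertain, as given above. None of these values is read as a finding.

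Slc6a8 and Slc25a14 are X-linked, as are Slc25a5, Slc35a2, Slc6a14 and Slc10a3. Xist, the RNA of the inactive X chromosome, was above 100 CPM in 6 mouse ids (Let7d 2 and 3, Let7e 1, mi699a-5p 1 and 4, NC 2) and at most 5.23 CPM in the other 8. The summed level of Y-linked genes, as log2 CPM, was 0.24 to 0.71 in Let7d 2 and 3 and mi699a-5p 1, 4 to 6 in the other 3 mouse ids with Xist, and 6.76 to 7.46 in those without. Slc25a14 ran from 7.51 to 28.6 CPM with a median of 19.0 in the mouse ids with Xist, against 0 to 8.28 CPM with a median of 1.74 in those without. Slc6a8 ran from 115 to 333 CPM (median 234) with Xist, against 74.3 to 143 CPM (median 114) without. The median difference in log2(CPM + 1) was 0.97 over the 6 X-linked carriers, 0.73 over all 231 X-linked genes other than Xist, and 0.07 over the 125 carriers on other chromosomes. Slc25a5 differed less, with medians of 299 CPM with Xist and 224 CPM without, and Slc6a14 was the exception, with 5.87 CPM with Xist and 10.9 CPM without.

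The Xist-carrying mouse ids were 2 of 3 in Let7d and 1 of 3 in NC. Slc25a14, a mitochondrial carrier of the uncoupling protein branch, had 0, 28.6 and 20.1 CPM in Let7d, against 4.85, 7.51 and 0 CPM in NC, so it was high in the 2 Let7d mouse ids with Xist. Its log2 fold change of 1.97, with a 95% interval of -1.62 to 5.55, turned to -3.52 ± 2.75 (SE) when the level of Y-linked genes was a covariate, with an adjusted p of 1 by edgeR, so neither estimate is resolved from 0. The part of embryo sex in the other carriers' differences was not tested beyond this covariate. Slc6a8 was at 0.26 in Let7d against NC, with an interval of -0.74 to 1.27.

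**Figure D5:**
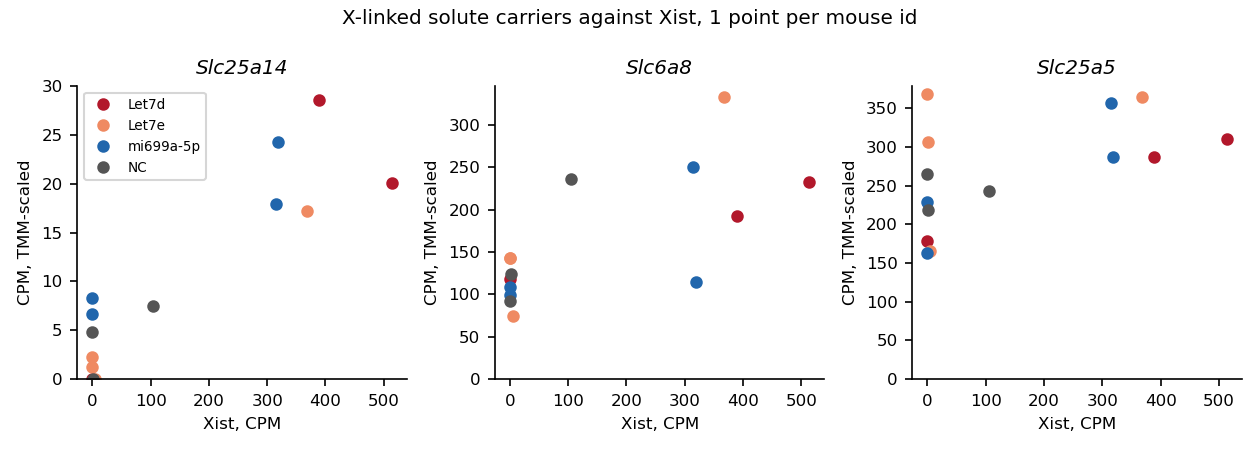
Level of the X-linked carriers Slc25a14, Slc6a8 and Slc25a5 (y, TMM-scaled CPM) against Xist (x, CPM), with 1 point for each of 14 mouse ids coloured by group. The 5 mouse ids with the most Xist hold the 5 highest Slc25a14 values, from 17.2 to 28.6 CPM.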

How the data were processed

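Per the labels, single blastomeres were read with Smart-seq2. The authors deposited raw counts per gene and cell, made with STAR on GRCm38.p6 per the submitters' processing notes. The counting program and strand setting are not given in the sources used here, and the table's name says it was filtered on CPM at an unstated threshold. Of 92 labelled cells, 82 had a column, and the other 10 were not analysed here. A deposited RPKM table was not used. The reads carry no molecular identifiers, so counts include amplification copies.

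Counts were summed per mouse id and tested in edgeR 4.0.16 (R 4.3.3): TMM, filterByExpr (0 of 7886 genes removed), quasi-likelihood F test, two-sided, Benjamini-Hochberg over all genes at 0.05, leaving 10 residual degrees of freedom, at a common dispersion of 0.249. Errors on log2 fold changes are SE. The script was tested on simulated data. Levels per kb are TMM-scaled CPM over the union of GENCODE M21 exons. Between cells, log2(CPM + 1) was used. Same-numbered mouse ids deviated together no more than others (mean r of 0.00587 over 19 pairs), so numbers pair no samples. No mouse id occurs in 2 groups, so batch and injected material cannot be told apart.

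Named genes were, per comparison and direction, drawn from the 3 Slc25 genes and the 5 others with the smallest p, with the 10 highest levels and the 5 largest and smallest spreads of each class, and listed fuel, amino acid and mitochondrial carriers. The values of 1 gene that this rule names are not reported here. The genes and lists were chosen with earlier results of these data known. Alternatives were RLE size factors, DESeq2 1.42.0, limma 3.58.1 on mean log2 CPM of cells, a mean of at least 10 CPM, a fit of 2 groups, a replicate block, Y-linked level as covariate, thinned cells, library sizes without ribosomal RNA and mitochondrially encoded genes, and leaving out each mouse id.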

Additional observations from a re-analysis of the deposited data

Results flagged for a closer look

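In 10 of 90 sets of 4 mouse ids examined, 1 stood apart from the other 3 by Dixon's criterion, which chance meets in about 1 in 20 sets of normally distributed values. The criterion was applied to CPM, which need not be so distributed. No share over all genes is given beside it, so the count is not a result about solute carriers. Slc10a6, a transporter of sulphated steroids, had 114 CPM in mi699a-5p mouse id 2, with 5.10 to 9.79 CPM in the others of its group. Slc35e3 had 113 CPM in the same mouse id, with 7.35 to 15.7 CPM in the others. The zinc transporter Slc30a2 had 3.52 CPM in mi699a-5p mouse id 1, with 0 to 0.223 CPM in the others. In mi699a-5p mouse id 4, Slc25a20 had 89.7 CPM, below the 133 to 140.2 CPM of the others, and Slc9a8 had 27.9 CPM, above their 17.0 to 18.2 CPM.

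In Let7e mouse id 1, Slc25a14 had 17.2 CPM, with 0 to 2.26 CPM in the others, and that was the Let7e mouse id with Xist. Slc39a1 had 534 CPM there, below the 827 to 846 CPM of the other Let7e mouse ids. Let7e mouse id 2 had 31.7 CPM of the fatty acid transport protein Slc27a4, with 7.20 to 11.3 CPM in the others. Let7e mouse id 3, the sum of 2 cells, had 12.7 CPM of Slc25a15, below 26.7 to 28.7 CPM in the others, and 76.4 CPM of Slc37a3, above their 15.4 to 25.8 CPM.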

How the results depend on the processing

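No solute carrier was called in any comparison under the 9 alternatives or with any of 14 mouse ids left out. DESeq2, which gave no adjusted p to as many as 101 carriers, came nearest, at 0.068 in Let7e against Let7d. With the replicate block 0 were called in every comparison. Of 1470 pairs of a named carrier and an alternative, 1467 kept the sign and 3 reversed. Slc25a14 in Let7d against NC turned to -3.52 ± 2.75 (SE) with the Y-linked covariate. With mouse ids left out, Slc35e3 ran from -0.05 to 1.85 and Slc10a6 from -0.064 to 3.31 in mi699a-5p against NC, both lowest without mi699a-5p mouse id 2. Without ribosomal RNA and mitochondrially encoded genes, which shrinks the total, the Slc25 share was 0.371% in Let7d, 0.438% in Let7e, 0.441% in mi699a-5p and 0.446% in NC, and that of the other carriers 0.991% in Let7e, 1.05% in mi699a-5p and 1.02% in NC. Depth limits carriers of few reads most, and 3 or 4 mouse ids a group limit all. Setting aside the 3 mouse ids with cells of both kinds was chosen after seeing the data, and moved the median share of variance within mouse ids to 83.4% for Slc25 genes and 86.3% for the other carriers.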
